A study of Homo sapiens with 6 samples.

Results

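The BCL2 family decides whether the outer mitochondrial membrane is kept closed or is opened to release cytochrome c. The genes described here are 10 of its best known members, fixed by name: BCL2, BCL2L1 and MCL1, which encode guardians of the membrane; BMF, BBC3, PMAIP1, BCL2L11 and BID, which encode BH3-only proteins; and BAX and BAK1, which encode the pore formers. They are 10 of the 37767 genes counted in either deposited table, and all 10 are among the 30341 genes counted in both tables. The cells were K562, a human line from a chronic myeloid leukaemia that carries the BCR-ABL1 fusion kinase. Untreated wild-type parental cells were sequenced as 2 libraries, Parental_1 and Parental_2, which the labels tie to 1 sample. The same wild-type cells after 48 h in 225 ng/ml doxorubicin gave 1 library. The other 4 libraries came from the anthracycline-tolerant clones ATC1 to ATC4, which were kept in 225 ng/ml doxorubicin. The drug, an anthracycline, poisons topoisomerase II and so leaves breaks in DNA.

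The clones came from 480 seeded wells that first received 100 ng/ml doxorubicin and then 225 ng/ml. After 4 weeks 21 wells held living cells, and 4 could be maintained. Each clone is the culture grown from 1 well, which had been seeded with many cells, so a clone need not descend from a single cell. The clones' RNA was taken from cells in the drug, so tolerance and the presence of the drug cannot be told apart. In these bulk libraries fewer cells that express a gene and less RNA per cell cannot be told apart either.

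Guardian proteins hold back the pore formers BAX and BAK1, which otherwise assemble in the mitochondrial membrane. BH3-only proteins carry stress signals: they occupy the groove of the guardians, and some also activate BAX and BAK1 directly. Drugs that imitate a BH3 domain use the same groove, and a cell's reliance on 1 guardian or another is commonly read from the balance of these proteins.

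Depth ran from 12537146 counts in Parental_2 to 21361758 in ATC1. Levels are given as CPM, the counts of a gene scaled to a common library total of 1000000. All 8 erythroid markers of K562 were expressed in all 7 libraries. Of 11 markers of other cell types, 1 to 3 were at 0 in each parental library and clone and none at 0 in the 48 h library, and their summed level was 75.7 and 74.0 CPM in the parental libraries, 89.5 to 112 in the clones and 75.8 at 48 h. Some of them differed between the groups. COL1A1, COL1A2 and PDGFRA together had 2.25 CPM in Parental_1, 1.36 in Parental_2, 14.4 to 64.4 in the clones and 23.4 at 48 h, while PDGFRA alone had 0 to 6 counts. CSF1R, a monocytic marker, had 3 counts in each parental library, 15 to 23 in the clones and 19 at 48 h. CD3D, a lymphoid marker, had 10.4 CPM in Parental_1, 18.4 in Parental_2, 21.2 to 29.2 in ATC1 to ATC3, 2.55 in ATC4 and 5.42 at 48 h, so ATC4 stood apart from the other clones for it as for BCL2. The part of these genes in the results below was not tested.

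In the tolerant clones BMF and PMAIP1 had more RNA than either parental library in all 4 clones, and BCL2 had less. Among all genes, the 4 clones lay above both parental libraries for 18% and below both for 16.3%. BMF averaged 22.4 ± 5.83 CPM (SD, n = 4 clones), 3.61 times Parental_1 and 10.6 times Parental_2. PMAIP1 averaged 43.4 ± 11.1 CPM (SD, n = 4), 2.01 times Parental_1 and 1.48 times Parental_2. BCL2 averaged 1.504 ± 1.94 CPM (SD, n = 4), 4.09-fold lower than Parental_1 and 8.53-fold lower than Parental_2. For the remaining 7 genes the 4 clones did not all lie on 1 side of both parental libraries. No gene passed the test across all genes, so each of these is a measured level and not a called change.

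The test set the 4 clones against Parental_1 in edgeR's quasi-likelihood model with Benjamini-Hochberg adjustment at 0.05. It called 0 of 18300 genes, 0% in either direction, and therefore 0 of the 10 family genes, all of which passed its filter on low counts. The smallest adjusted p of any gene was 0.14. Before adjustment, p was under 0.05 for 1372 genes that were higher and 784 that were lower. BMF and PMAIP1 were 2 of the genes higher at that level, against 7.5% of all genes, and no family gene was lower, against 4.28%. DESeq2 on the same counts called 464 genes higher and 102 lower, and BMF was the 1 family gene among them. With 1 parental library the spread comes from the clones alone, on 3 residual degrees of freedom, and the parental library is assumed to vary as they do.

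BCL2, the founding guardian of the family, lies on chromosome 18 at 63123346 to 63320128 (GRCh38, GENCODE 29; ENSG00000171791). Its scaled level was 6.16 CPM in Parental_1 and 12.8 in Parental_2. ATC1 had 0.312 CPM, ATC2 0.545, ATC3 0.764 and ATC4 4.39. The clones and the parental libraries did not overlap, but ATC4 stood apart from the other clones and was nearest to Parental_1. The raw counts behind these levels were small, 7, 11, 15 and 88 in ATC1 to ATC4 against 115 in Parental_1 and 151 in Parental_2.

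Against Parental_1, BCL2 was 19.7-fold lower in ATC1, with a 95% interval of 9.28 to 50.2. It was 11.3-fold lower in ATC2 (6.08 to 23.3) and 8.05-fold lower in ATC3 (4.68 to 14.9). In ATC4 the ratio to Parental_1 was 0.714 (0.534 to 0.950), 1.40-fold lower, a far smaller difference than in the other clones. These exact intervals cover counting error only, as do all intervals on ratios below. Over the 4 clones the log2 fold change was -2.02 ± 1.18 (SE; edgeR adjusted p = 0.512), and without ATC4 it was -3.49 (edgeR adjusted p = 0.0671). Against Parental_2 all 4 clones were more than 2-fold lower, from 41.1-fold in ATC1 to 2.92-fold in ATC4.

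BCL2 was the 1 family gene at least 2-fold lower than Parental_1 in ATC1 to ATC3, as were 2.42% of all genes tested. Setting ATC4 aside here was chosen after the values of BCL2 were seen, so that share does not measure how unusual BCL2 is. No family gene was 2-fold lower than Parental_1 in all 4 clones, as were 1.1% of genes, or 2-fold lower than both parental libraries, as were 0.598%. All 4 clones lay below both parental libraries for BCL2, as they did for 16.3% of all genes.

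**Figure D1:**
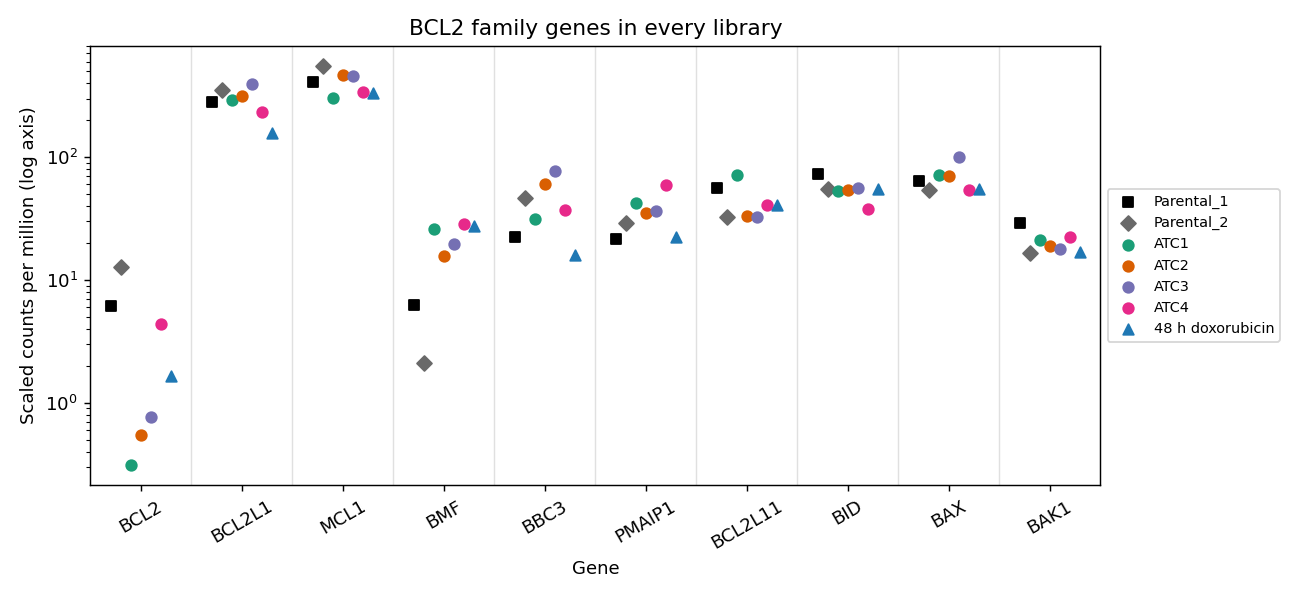
Level of each of the 10 genes in every library, in CPM on a log axis; squares and diamonds are the 2 parental libraries, circles the 4 clones and triangles the 48 h library. BCL2 in ATC1 to ATC3 sits between 0.312 and 0.764 CPM, far below ATC4 and both parental libraries, while BMF sits above both parental libraries in every clone and at 48 h.

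BCL2L1, on chromosome 20 at 31664452 to 31723989 (ENSG00000171552), encodes BCL-XL, the guardian that erythroid cells rely on as they mature. It had 283 CPM in Parental_1 and 351 in Parental_2, and 290, 318, 392 and 233 in ATC1 to ATC4. The clones spread to both sides of the parental libraries, and their log2 fold change to Parental_1 was 0.14 ± 0.35 (edgeR adjusted p = 0.887). Against Parental_2 the direction turned, to -0.18. MCL1, on chromosome 1 at 150574551 to 150579738 (ENSG00000143384), encodes a short-lived guardian that is quickly lost when its synthesis stops. Its level was 407 CPM in Parental_1 and 554 in Parental_2, and 305, 466, 462 and 337 in ATC1 to ATC4. ATC1 and ATC4 lay below both parental libraries and ATC2 and ATC3 between them, with a log2 fold change of -0.03 ± 0.36 (edgeR adjusted p = 0.976) that turned to 0.15 when libraries were scaled by their totals.

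Both of these guardians were far more abundant than BCL2. Per kilobase of annotated exon, BCL2 had 0.292% of the summed level of the 3 guardian transcripts in Parental_1 and 0.466% in Parental_2. In the clones its share was 0.0168% to 0.253%, and at 48 h it was 0.114%. BCL2L1 made up 47.7% of that sum in Parental_1, 45.3% in Parental_2, 47.3% to 55.6% in the clones and 38.2% at 48 h. MCL1 made up 52.0%, 54.2%, 44.4% to 52.7% and 61.7% in the same order.

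BMF encodes a BH3-only protein that is known for its binding to the dynein light chain and for sensing loss of anchorage. It lies on the minus strand of chromosome 15 at 40087890 to 40108892 (ENSG00000104081). BMF had 6.21 CPM in Parental_1 and 2.12 in Parental_2. The clones ATC1 to ATC4 had 25.8, 15.8, 19.5 and 28.6 CPM. Every clone lay above both parental libraries, and the clones' whole range, 318 to 579 counts, stood clear of the 116 counts of Parental_1 and the 25 of Parental_2.

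The ratio of BMF to Parental_1 was 4.15 (3.40 to 5.12) in ATC1 and 4.599 (3.76 to 5.66) in ATC4. ATC2 and ATC3 were lower, with 2.54 (2.05 to 3.17) and 3.14 (2.55 to 3.90). Against Parental_2, which had 25 counts, the ratio ran from 7.43 (4.94 to 11.6) in ATC2 to 13.5 (9.02 to 21.0) in ATC4. It was at least 2-fold in every clone against either parental library, as it was for 6.66% of genes against Parental_1 and 4.12% against both, and BMF was the 1 family gene of which this held. Its log2 fold change was 1.87 ± 0.48 (edgeR adjusted p = 0.326), and 3.41 with Parental_2 in its place (edgeR adjusted p = 0.0979). DESeq2 gave 1.84 with an adjusted p of 0.00769. Over the alternatives tried the adjusted p ran from 0.00769 to 0.552 and passed 0.05 in DESeq2 only.

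PMAIP1 encodes NOXA, a BH3-only protein that binds mainly MCL1 and speeds its removal. It lies on the plus strand of chromosome 18 at 59899948 to 59904306 (ENSG00000141682). Its level was 21.6 CPM in Parental_1 and 29.4 in Parental_2, against 42.7, 35.0, 36.5 and 59.3 in ATC1 to ATC4. No clone overlapped a parental library, but the gap to Parental_2 was narrow in ATC2, with a ratio of 1.19 (1.05 to 1.36), and wide in ATC4, with 2.02 (1.79 to 2.28). Its log2 fold change to Parental_1 was 1.03 ± 0.39 (edgeR adjusted p = 0.406). All 4 clones lay above both parental libraries for BMF and PMAIP1, as they did for 18% of all genes.

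The sequences upstream of these 2 genes are shown because theirs were the transcripts above both parental libraries in every clone. Each is the 200 bases from 250 to 51 bases before the RefSeq start, read 5′ to 3′ on the gene's strand (GRCh38.p14). They are chr15:40108930-40109129 on the minus strand for BMF and chr18:59899746-59899945 on the plus strand for PMAIP1, and both lie outside the GENCODE gene. Capitals mark CCAAT and GGGCGG in either orientation.
BMF: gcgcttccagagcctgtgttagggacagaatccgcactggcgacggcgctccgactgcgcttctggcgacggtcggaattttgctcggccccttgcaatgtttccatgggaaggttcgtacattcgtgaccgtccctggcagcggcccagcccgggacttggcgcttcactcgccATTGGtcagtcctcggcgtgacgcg
PMAIP1: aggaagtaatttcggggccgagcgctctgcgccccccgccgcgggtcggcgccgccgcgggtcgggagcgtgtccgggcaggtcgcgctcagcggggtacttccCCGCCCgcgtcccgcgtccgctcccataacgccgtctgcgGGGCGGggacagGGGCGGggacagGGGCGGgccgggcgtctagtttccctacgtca

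The BMF window holds 1 CCAAT box, in reverse orientation and near the start, and no GC box. The PMAIP1 window holds 4 GC boxes and no CCAAT box. Over the 9 family genes with a RefSeq promoter entry, matched by symbol, 5 had CCAAT (BMF, BBC3, BCL2L11, BAX and BAK1) and 3 had GGGCGG (PMAIP1, BCL2L11 and BAK1), where 27.4% and 35% of all 35116 promoter windows have them. The E-box CACGTG was in 2, BBC3 and BAX, against 4.51% of windows, and the forkhead sequence GTAAACA in 1, BCL2L11, against 2.35%. The STAT sequence TTCNNNGAA was in 0 of the 9, against 5.48%. Where several promoters were listed, 2 for BMF and BCL2L1 and 5 for BID, the 1 nearest the GENCODE start was used. The windows of BCL2, BBC3, BCL2L11, BID and BAX lie wholly or partly inside the GENCODE gene. For BCL2L11 the RefSeq start is 1536 bases from the GENCODE start. Both strands were searched, the 5 motifs do not contain each other, and a match is a run of letters and not a shown site.

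BBC3, on chromosome 19 at 47220822 to 47232766 (ENSG00000105327), encodes PUMA, a BH3-only protein that binds all the main guardians. It had 22.4 CPM in Parental_1 but 46.7 in Parental_2. ATC1 had 31.5 CPM, ATC2 60.3, ATC3 77.8 and ATC4 37.1. All 4 clones were above Parental_1, but ATC1 and ATC4 were below Parental_2, so the groups overlap once both parental libraries are counted. The log2 fold change to Parental_1 was 1.23 ± 0.56 (edgeR adjusted p = 0.438), and the mean of the clones was 2.30 times Parental_1 and 1.11 times Parental_2. BBC3, BMF and PMAIP1 were the 3 family genes higher than Parental_1 in every clone, as were 26.7% of all genes.

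BCL2L11, on chromosome 2 at 111119378 to 111168447 (ENSG00000153094), encodes BIM, the BH3-only protein tied to withdrawal of growth signals. Its level was 55.8 CPM in Parental_1 and 32.3 in Parental_2, and 71.5, 33.3, 32.7 and 40.6 in ATC1 to ATC4. ATC1 was the highest library of all and the other clones lay between the parental libraries. The log2 fold change was -0.31 ± 0.46 to Parental_1 and 0.47 to Parental_2. Its exons overlap those of MIR4435-2HG on the opposite strand by 727 bases, and that gene had 674 counts in Parental_1 and 558 to 969 in the clones. The kit marks strand, but whether the counting used it is not stated, and the split of reads between the 2 genes is uncertain.

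BID, on chromosome 22 at 17734138 to 17774770 (ENSG00000015475), encodes the BH3-only protein that caspase-8 cleaves to link death receptors to mitochondria. It had 72.8 CPM in Parental_1, 55.1 in Parental_2, and 52.6, 53.8, 55.7 and 37.8 in the clones. ATC1 to ATC3 lay at about the level of Parental_2 and ATC4 lower, and the log2 fold change to Parental_1 was -0.52 ± 0.30 (edgeR adjusted p = 0.506).

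For neither of the 2 pore formers did the clones lie clear of both parental libraries. BAX, on chromosome 19 at 48954815 to 48961798 (ENSG00000087088), had 63.8 CPM in Parental_1, 54.2 in Parental_2, and 71.5, 70.7, 101 and 54.0 in ATC1 to ATC4. ATC3 was the highest library and ATC4 sat at the level of Parental_2, with a log2 fold change of 0.24 ± 0.37 (edgeR adjusted p = 0.811). BAK1, on chromosome 6 at 33572547 to 33580293 (ENSG00000030110), had 29.01 CPM in Parental_1 and 16.7 in Parental_2, and 21.1, 18.9, 17.8 and 22.6 in the clones. All clones lay between the parental libraries, and the log2 fold change was -0.51 ± 0.31 to Parental_1 and 0.27 to Parental_2. BCL2, BID and BAK1 were the 3 family genes lower than Parental_1 in every clone, as were 25.4% of all genes. The processed pseudogene BAK1P1 was listed at 13 to 39 counts per library, and reads shared between it and BAK1 were not told apart here.

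Reads of BMF, BCL2L1 and BBC3 may likewise be shared with the overlapping BMF-AS1, ABALON, MIR3190 and MIR3191, which were not analysed here. MCL1 overlaps ADAMTSL4-AS1 by 2 bases and BAK1 overlaps GGNBP1 by 91, and neither of those genes had more than 19 counts in any library.

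**Figure D2:**
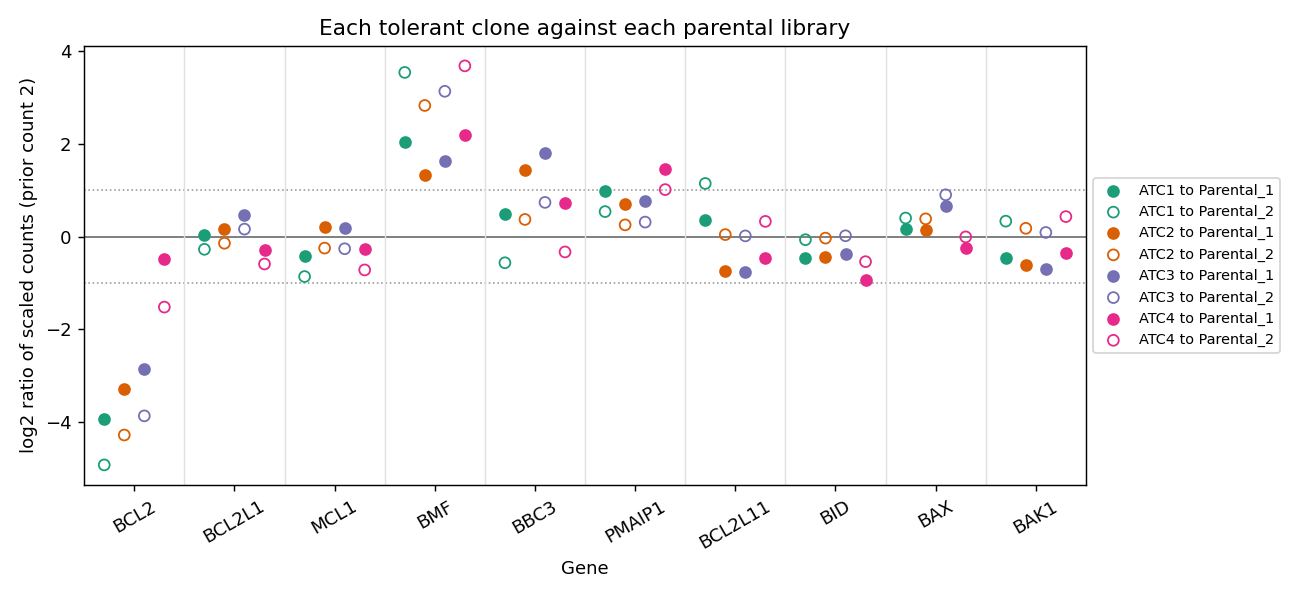
Log2 ratio of each clone to Parental_1 (filled circles) and to Parental_2 (open circles) for each of the 10 genes, with a prior count of 2; dotted lines mark 2-fold. BMF is above the upper line in all 4 clones against either library. BCL2 is below the lower line in ATC1 to ATC3 against either library, and in ATC4 against Parental_2 only. BAK1 in all clones and BCL2L11 in ATC2 to ATC4 change side with the parental library. So do BCL2L1 in ATC1 and ATC2, MCL1 in ATC2 and ATC3, BBC3 in ATC1 and ATC4, and BID in ATC3.

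Which parental library was used mattered for several genes. Parental_2 against Parental_1 gave ratios of 2.08 (1.62 to 2.68) for BCL2, 2.08 (1.83 to 2.37) for BBC3 and a 2.93-fold lower value (1.89 to 4.71) for BMF. These 3 were the family genes at least 2-fold apart between libraries of the same untreated sample. Of all genes, 5.73% were 2-fold higher and 5.5% 2-fold lower in Parental_2. BAK1 was 1.73-fold lower in Parental_2, and the interval left out 1 for all 10 genes. For 3 genes, BCL2L1, BCL2L11 and BAK1, the clones' mean was on opposite sides of the 2 parental libraries.

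Beside these single genes, the median log2 fold change of the 10 genes in the clones was 0.06, and 0.11 over all genes tested.

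At 48 h of doxorubicin BMF was the 1 family gene at least 2-fold higher, and BCL2, BCL2L1 and BBC3 were at least 2-fold lower, all against Parental_2, the library in the same table. BMF had 27.7 CPM, 13.0 times Parental_2. BCL2 had 1.65 CPM, 7.76-fold lower, and BCL2L1 had 157 CPM, 2.24-fold lower, which scaling by library totals takes just under 2-fold (log2 ratio -0.98). Genes entered the background with 20 counts or more in 1 of the 2 libraries, and 14.1% of them were 2-fold higher and 10.4% 2-fold lower. With 1 library on each side there is no replicate check and no test.

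Among the guardians, BCL2 had 25 counts at 48 h against 151 in Parental_2, and the 7.76-fold difference has a 95% interval of 5.06 to 12.4. It was 3.73-fold below Parental_1 (2.40 to 5.999). BCL2L1 was 2.24-fold lower than Parental_2 (2.13 to 2.36) and 1.81-fold lower than Parental_1 (1.72 to 1.90). MCL1 had 333 CPM, 1.66-fold lower than Parental_2 (1.60 to 1.73) and 1.22-fold lower than Parental_1 (1.18 to 1.27). All 3 guardian transcripts were thus lower than in both untreated libraries, the least for MCL1.

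Among the BH3-only genes, BMF had 419 counts against 25, a ratio of 13.0 (8.71 to 20.4), and 4.46 (3.62 to 5.52) against Parental_1. BBC3 had 15.9 CPM, 2.93-fold lower than Parental_2 (2.52 to 3.43), but only 1.41-fold lower than Parental_1 (1.20 to 1.66). PMAIP1 had 22.3 CPM, with a ratio of 0.758 (0.650 to 0.883) to Parental_2 and 1.03 (0.890 to 1.20) to Parental_1. At 48 h BBC3 thus lay below both untreated libraries, PMAIP1 between them and BMF above them.

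BCL2L11 had 40.8 CPM, a level between the parental libraries, with ratios of 1.26 to Parental_2 and 0.731 to Parental_1. BID, BAX and BAK1 had 54.7, 55.3 and 16.8 CPM, and their ratios to Parental_2 were 0.993 (0.894 to 1.10), 1.02 (0.919 to 1.13) and 1.00 (0.83 to 1.21). For these 3 genes the interval held 1, so no difference from Parental_2 was detectable at this depth. Against Parental_1 all 3 were lower, with ratios of 0.751, 0.867 and 0.578.

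Counted against both untreated libraries, BMF was at least 2-fold above each, as were 9.96% of genes, and BCL2 at least 2-fold below each, as were 5.32%. Above both by any amount was 1 family gene, BMF, where 35.9% of all genes were. Below both were 5, BCL2, BCL2L1, MCL1, BBC3 and BID, where 41.4% of all genes were. With Parental_1 as the reference, BMF was still the 1 family gene 2-fold higher (background 15.3%), but only BCL2 was 2-fold lower (background 10.2%). The median log2 ratio of the 10 genes was -0.20 to Parental_2 and -0.43 to Parental_1, beside -0.05 and -0.06 over all genes.

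**Figure D3:**
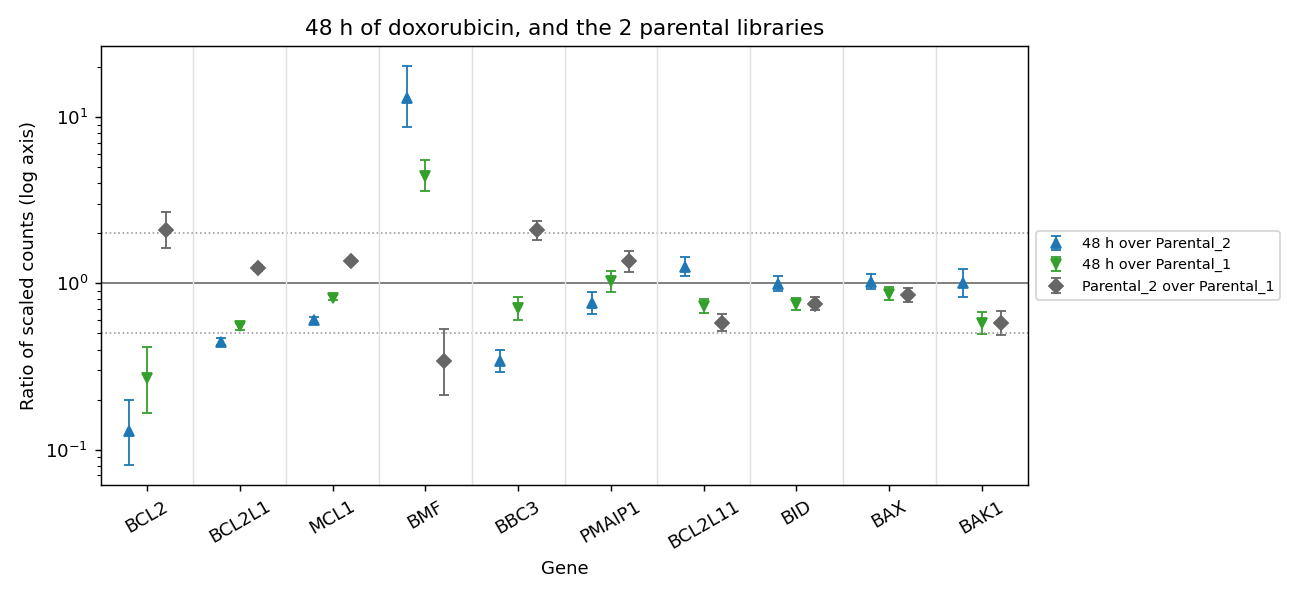
Ratio of the 48 h library to Parental_2 (upward triangles) and to Parental_1 (downward triangles), and of Parental_2 to Parental_1 (diamonds), on a log axis; bars are exact 95% intervals for counting error only, and dotted lines mark 2-fold. BMF and BCL2 at 48 h lie beyond 2-fold against both untreated libraries, while BBC3 and BCL2L1 do so against Parental_2 only.

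The clones and the 48 h library were next set side by side, since both had been exposed to 225 ng/ml. Parental_1 was counted with the clones and Parental_2 with the 48 h library, and these parental libraries differed beyond counting error for all 10 genes. A difference between the clones and the 48 h library cannot be told apart from such a difference between sets of libraries. BMF at 48 h, 27.7 CPM, was inside the clones' range of 15.8 to 28.6. BCL2 at 48 h, 1.65 CPM, lay between ATC3 and ATC4. BCL2L1, BBC3, PMAIP1 and BAK1 were higher in all 4 clones than at 48 h, as were 27.2% of all genes, and no family gene was lower in all 4, as were 24.9%. BCL2L1 had 233 to 392 CPM in the clones against 157 at 48 h, and PMAIP1 35.0 to 59.3 against 22.3. For BAK1 the gap was small, 17.8 to 22.6 against 16.8.

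Ordered by level per kilobase of annotated exon, which allows genes to be compared, MCL1 and BCL2L1 led in every group. In Parental_1 they had 93.0 and 85.5 CPM per kilobase, and in the clones 89.8 ± 19.2 and 93.0 ± 19.96 (SD, n = 4), so their order in the clones was within the spread. BAX followed with 24.7 in Parental_1 and 28.7 ± 7.60 in the clones, followed there by PMAIP1 (19.4 ± 4.98) and BBC3 (16.3 ± 6.73), and the clones' ranges of these 3 genes overlap. BID had 11.2 ± 1.85 and BAK1 9.08 ± 0.968 in the clones, ahead of BCL2L11 with 6.69 ± 2.76, and these neighbours overlap too.

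At the lower end were BMF and BCL2. BMF had 1.14 CPM per kilobase in Parental_1, 4.11 ± 1.07 in the clones and 5.08 at 48 h. BCL2 had 0.523 in Parental_1, 1.09 in Parental_2, 0.128 ± 0.164 in the clones and 0.140 at 48 h. The order of these 2 differed between the untreated libraries, since Parental_2 had 0.390 for BMF, less than for BCL2. In every clone and at 48 h BMF was above BCL2. Exon lengths here take every annotated exon of a gene, and a cell that uses shorter isoforms would have a higher level per kilobase than printed.

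**Figure D4:**
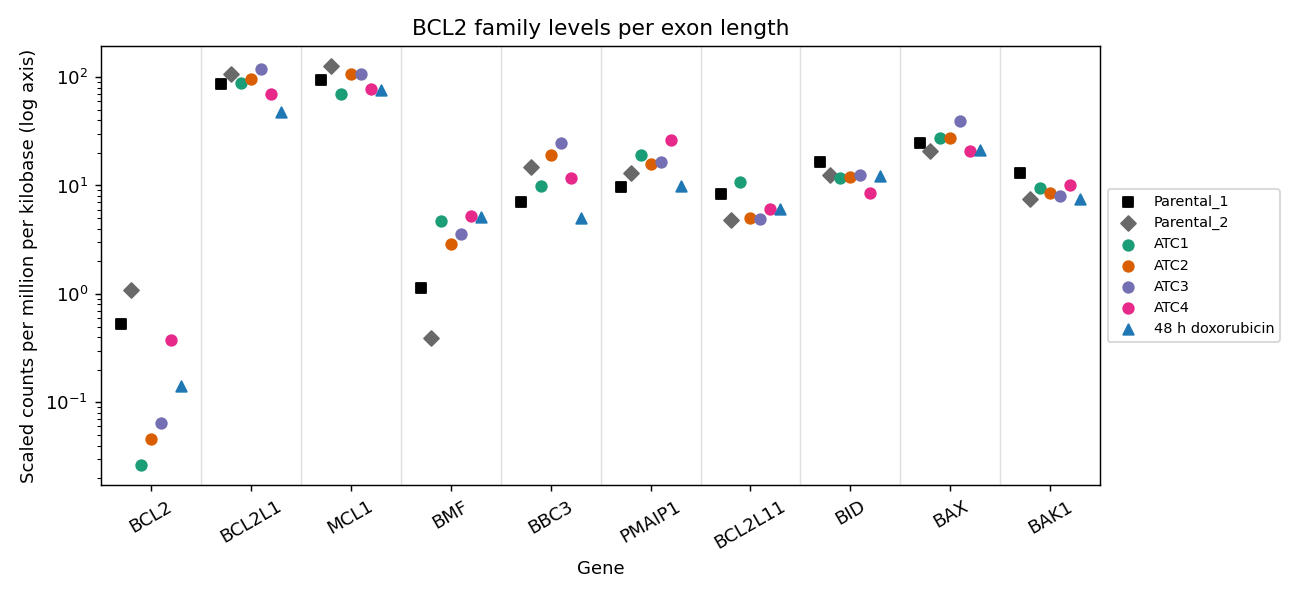
Level of each gene per kilobase of annotated exon, in scaled CPM per kilobase on a log axis, with symbols for the 7 libraries. MCL1 and BCL2L1 are highest in every library, and BMF and BCL2 are lowest in both untreated libraries.

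Other genes of the mitochondrial pathway were looked at in 7 lists. None had a gene called by edgeR in the clones. Over all 7 lists 3 of 49 tested genes, 6.12%, were at least 2-fold higher than Parental_1 in all 4 clones, near the 6.66% of all genes. Of 3 other guardian genes, BCL2L2 alone was tested and its log2 fold change was 0.24, while BCL2A1 had 0 counts in both parental libraries and 3 to 8 in the clones. Of 10 other BH3-only and BH3-like genes 8 were tested, with a median of 0.21, and 1 was at least 2-fold higher in all 4 clones. This was BIK, a BH3-only protein of the endoplasmic reticulum, with 4 counts in Parental_1 and 29, 14, 19 and 13 in ATC1 to ATC4 (2.06 ± 0.87). BNIP3, a mitophagy receptor, was the lowest of that list at -0.48. All 4 other pore genes were tested, with a median of -0.64. BOK, a relative of BAX, was the highest at 0.63, and the channel VDAC1 the lowest at -0.75 ± 0.39.

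Downstream of the mitochondrion, the 9 apoptosome and caspase genes had a median of 0.24. CASP2, an initiator caspase, was the lowest at -0.66. Of 8 genes for released factors and caspase inhibitors, with a median of 0.28, 1 was at least 2-fold higher in all 4 clones. This was BIRC3, which encodes the ubiquitin ligase cIAP2, with 8 counts in Parental_1 and 110, 189, 53 and 69 in the clones (3.58 ± 1.00). ENDOG, a mitochondrial nuclease, was the lowest at -0.84. None of the 7 lists had a gene 2-fold lower in all 4 clones.

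Among 12 transcription factors known to act on family genes the median was 0.15, and 1 was at least 2-fold higher in all 4 clones. This was FOXO1, a forkhead factor held out of the nucleus by AKT, with 23 counts in Parental_1 and 134, 161, 158 and 85 in the clones (2.43 ± 0.65). STAT5A, which acts below BCR-ABL1, was the lowest at -1.36 ± 0.38, with 12154 counts in Parental_1 and 4759, 4931, 3592 and 7288 in the clones. The 7 measured regulators of MCL1 and BIM turnover had a median of -0.05, from 1.20 for TRIM17 to -0.59 for USP13.

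At 48 h the list of transcription factors held most of the genes past 2-fold against Parental_2. TP73 and E2F1 were higher and DDIT3, ATF4, MYC, STAT5A and STAT5B lower, 7 of 12, named here after their values were seen. Among all genes, 14.1% were 2-fold higher than Parental_2 and 10.4% 2-fold lower. ATF4, which drives the integrated stress response, had 1383 counts at 48 h and 4928 in Parental_2. STAT5B had 1199 and 5065. In the turnover list HUWE1 and FBXW7, which mark MCL1 protein for removal, were 2 of 7 genes past 2-fold and both were lower. BNIP3L in the BH3-like list, BOK among the pore genes and BIRC3 among the caspase inhibitors were the single genes 2-fold higher than Parental_2 in their lists, and the 9 apoptosome and caspase genes held none in either direction.

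Against Parental_1 the set differed. Of 48 genes of the 7 lists measured at 48 h, 12 were past 2-fold against Parental_2, 11 against Parental_1 and 8 the same way against both. Of all genes, 14.1% were 2-fold higher and 10.4% lower against Parental_2, and 15.3% and 10.2% against Parental_1. Against both, 9.96% of all genes were 2-fold higher and 5.32% lower. The 8 list genes past 2-fold against both were BNIP3L and BIRC3, higher, and ATF4, MYC, STAT5A, STAT5B, HUWE1 and FBXW7, lower. BOK, TP73, E2F1 and DDIT3 were past 2-fold against Parental_2 only, with log2 ratios to Parental_1 of 0.76, 0.15, 0.74 and -0.52. CASP10 and ENDOG were among those past it against Parental_1 only, with 1.15 and 1.07.

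The genes most like BMF over the 7 libraries were NCCRP1, ACCN3 and C10orf10, with Pearson correlations of log2 CPM of 0.993, 0.989 and 0.988. The genes most like BCL2 were TPR, KDELC2 and SLC25A21, at 0.982, 0.979 and 0.975. They are the 3 best of all tested genes for the family genes with the highest and the lowest clone fold change. The 7 libraries were scaled together and differ in depth, and these values only describe likeness. NCCRP1 was scarce, with 0.499 CPM at most, whereas TPR had 323 to 714 CPM. C10orf10 had 0.375 CPM in Parental_1, 0.0849 in Parental_2, 2.03 to 5.24 in the clones and 3.24 at 48 h.

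For 2 genes in regions of chromosomes 6 and 1 the 10 nearest tested genes, 5 on each side, were read beside them. The neighbours of BAK1 had median log2 ratios to Parental_1 of -0.37, -0.11, -0.09 and -0.17 in ATC1 to ATC4, and BAK1 itself -0.46, -0.61, -0.70 and -0.36. BAK1 was below its neighbours' median in every clone, but only against Parental_1. Against Parental_2, a reading added after seeing the data, the neighbours had -0.18, 0.29, -0.14 and 0.09 and BAK1 0.33, 0.18, 0.09 and 0.43, above them in 3 of 4 clones. The neighbours of MCL1 had medians of 0.39, -0.01, 0.32 and 0.08, and MCL1 itself -0.41, 0.20, 0.18 and -0.27, on no common side of them. Against Parental_2 MCL1, from -0.86 to -0.25, was below its neighbours' medians of 0.35 to 0.79 in all 4 clones.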

How the data were processed

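RNA was taken with TRIzol and libraries were made with a stranded poly(A) TruSeq kit, per the labels' protocols. The deposited tables hold counts of reads per gene to which the authors added 1, with a pair of libraries without a read left missing; the 1 was subtracted and missing values were read as 0. Per the submitters' processing notes the build is GRCh38; positions came from GENCODE 29 by Ensembl ID. Aligner, counter and strand use stay not given in the sources used here.

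All 7 libraries were scaled together (TMM) for CPM. Clones were tested against Parental_1 with edgeR 4.0.16 (R 4.3.3, its own low-count filter). The SE was worked back from the F statistic. Ratios per clone and at 48 h used a prior count of 2 on the log2 scale. The edgeR test and the ratio intervals were first tested on simulated counts. The clones are separate wells of 1 selection. The edgeR p-values rest on their spread at each gene together with the spread over all genes, and on no parental replicate. Alternatives were DESeq2 1.42.0, limma-voom (limma 3.58.1), other scalings, filters, prior counts and parental libraries, and each clone left out.

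All 10 family genes are named; of each pathway list, the genes with the highest and lowest fold change; some results are not reported here. The members and lists were chosen with earlier results of these data known. No protein sequence was used.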

Additional observations from a re-analysis of the deposited data

Results flagged for a closer look

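BCL2 in ATC4 stood apart from the other clones, at 4.39 CPM where the other 3 had 0.312 to 0.764. The gap between ATC4 and its nearest neighbour was 0.889 of the clones' whole range, above Dixon's 95% critical value for 4 samples. All 10 genes were looked at in this way on CPM, and chance marks about 1 in 20 such groups. The mark depends on the scale. As log2 ratios to Parental_1 the values were -3.93, -3.27, -2.85 and -0.48 in ATC1 to ATC4, where the gap does not pass the critical value. The call "2-fold lower in all 4 clones" depends on ATC4: without ATC4 it holds for BCL2 against Parental_1, and with ATC4 it does not.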

How the results depend on the processing

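BMF was at least 2-fold higher in all clones under every prior count, scaling, parental library and left-out clone tried. No family gene was 2-fold lower in all 4 clones, but 1 was (BCL2) with Parental_2 as the reference, and leaving out each clone gave 0 to 1 (1 without ATC4). At 48 h the 3 genes 2-fold lower became 1 with Parental_1 and 1 with both parental libraries summed, and 2 with library totals, where BCL2L1 was at -0.98 on the log2 scale. Genes called over the whole table were 0 higher and 0 lower with edgeR; DESeq2 gave 464 and 102, no filter on low counts 11 and 8, and both parental libraries as replicates 248 and 97. Leaving out each clone gave 0 to 49 higher and 0 to 35 lower, the highest without ATC4. The causes were not tested. MCL1 turned from -0.03 to 0.15 with library totals, 0.10 with upper-quartile scaling, 0.059 with a mean count of at least 50, and -0.12 to 0.061 when each clone was left out, above 0 without ATC1 or ATC4. With Parental_2, BCL2L1 turned to -0.18, BCL2L11 to 0.47 and BAK1 to 0.27; with both as replicates BCL2L1 turned to -0.021 and BCL2L11 to 0.033. Of the other log2 fold changes of family genes under an alternative, 138 kept direction and side of the threshold and 1, BMF in DESeq2, passed it. Library totals moved the median of all genes from 0.11 to 0.29, and upper-quartile scaling to 0.24. With the mean count of at least 50 BCL2 had no value. Leaving out each clone for the 2-fold counts and scaling each table on its own were chosen after seeing the data. No paired analysis was possible because the labels match no clone to an untreated culture of its own, and the 48 h group is 1 library. Depth limits BCL2 most, with 7 to 15 counts in ATC1 to ATC3.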
